A study of Mus musculus with 6 samples.

Results

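The 39 genes described here encode the junctions that hold epithelial cells together, the keratins behind them and the polarity machinery that places them. The set was given as a list of symbols: 16 tight junction genes, 5 genes of adherens junctions and related adhesion, 7 desmosome genes, 4 keratins with ladinin, and 6 genes of polarity and membrane trafficking. Each of the 39 had 1 probe set with a single annotated symbol, so all 39 were measured, among 19937 genes in all. The RNA came from mouse embryonic stem cells, cells of the early embryo kept in culture, on 3 arrays after knockdown of Trim71 and 3 control arrays. Trim71 encodes a TRIM-NHL protein that binds RNA and can act as a ubiquitin ligase. Knockdown cells had been transfected with 3 siRNAs to Trim71 and were collected 72 h later. The labels call the control samples wild type and parental, while the growth protocol mentions a non-targeting siRNA, so the treatment of the controls cannot be settled from the labels. The labels name no strain, cell line or passage. They also do not say whether arrays of a group came from separate cultures, so the p-values below cover only the spread among these 6 samples, and that spread may be technical.

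Embryonic stem cells grow as compact colonies and carry E-cadherin and several claudins although they are not a polarized epithelium. Tight junctions seal the space between neighbouring cells through claudins, occludin and junctional adhesion molecules, which scaffold proteins of the zonula occludens family tie to actin. Adherens junctions join cells through cadherins and catenins, and desmosomes join them through desmosomal cadherins, plakophilins and desmoplakin, which anchor keratin filaments. Keratins of the simple epithelial type are among the earliest intermediate filaments of the embryo and are abundant in the trophectoderm, the outer layer of the blastocyst.

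Values are log2 levels after RMA, the authors' background correction, array scaling and probe summary, and a fold change is the knockdown mean minus the control mean on that scale. A gene was called changed at an adjusted p under 0.05 in limma over all 19937 genes. The targeted transcript checked the labels: Trim71 averaged 8.98 ± 0.025 on the knockdown arrays and 10.50 ± 0.018 on the control arrays (SD, n = 3 each), so 34.9% of its control level remained. The stem cell markers Pou5f1, Nanog, Sox2, Zfp42, Esrrb and Sall4 were bright in both groups, with mean log2 levels between 10.10 and 12.23. Knockdown array 3 had an upper quartile of 8.42, against 8.32 to 8.35 on the other 5 arrays, and it was the highest knockdown array for 72.9% of genes brighter than the median gene. It was also the highest knockdown array for 27 of the 39 genes, and control array 1 was the lowest control array for 27 of the 39, against 36.2% of all genes.

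Lad1, F11r, Rab25, Cldn7 and Tjp3 rose after the knockdown, between 1.17-fold and 1.56-fold, and no gene of the set fell. The 5 higher genes are 12.8% of the 39, where 3.39% of all genes were called higher, and the 0 lower genes stand beside 2.15% of all genes called lower. The 39 were chosen with earlier results of these data known. The shares of the set and of all genes given here are therefore descriptive, and their difference is not a test. The remaining 34 genes did not pass the test in limma. Of the 39 genes, 6 were called higher and 1 lower with array weights, where 5.59% of all genes were higher and 5.31% lower. The counts were likewise 6 and 1 when quantile normalization was repeated, where 4.33% and 3.77% of all genes were called. Median centring of the arrays gave 5 and 0, the same counts as the values as deposited, where 3.57% and 2.60% of all genes were called. At an unadjusted p under 0.05, 14 of the 39 were higher (35.9%, against 11% of all genes) and 4 were lower (10.3%, against 8.08%). The 3 knockdown values lay above all 3 control values for 16 genes (41.0%, against 14.7% of all genes), and below all 3 for 5 (12.8%, against 10.8%). The median log2 fold change of the 39 was 0.11, against 0.00 for all genes. Of the 39, 28 were above 0 (71.8%, against 51.8% of all genes). The set is brighter than average, with 31 of 39 brighter than the median gene. Of these 31, 5 were called higher (16.1%), where 5.69% of all genes that bright were. Of the other 8, 0 were called in limma, where 108 of all 9968 genes that dim were called higher and 74 lower. With an unadjusted p under 0.05, 2 of the 8 were lower (25%, against 4.41% of genes that dim) and 0 higher (against 5.89%).

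**Figure D1:**
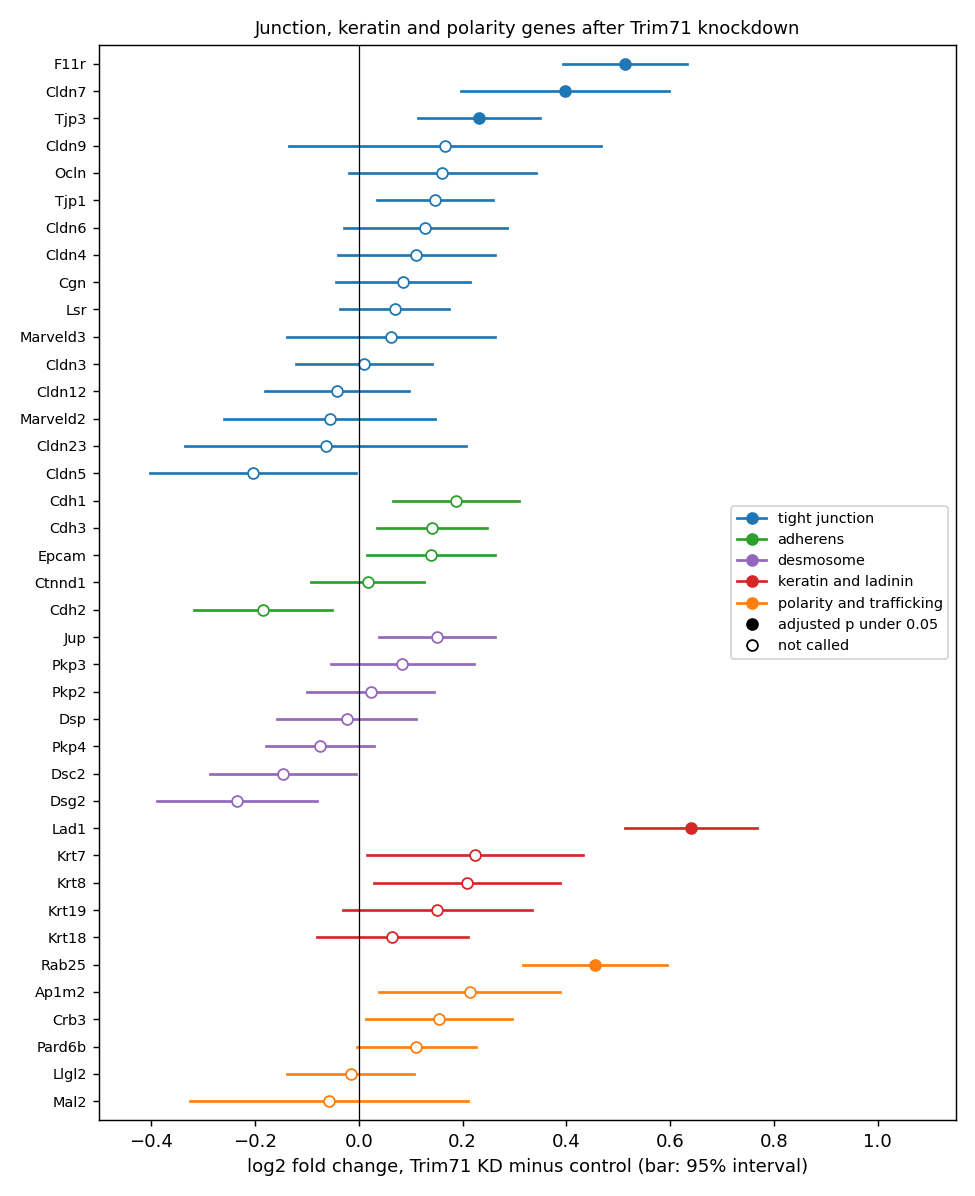
Log2 fold change of all 39 genes (x axis, Trim71 knockdown minus control, n = 3 arrays each), grouped and coloured by role and ordered by size within a role. Points are estimates and bars 95% intervals from limma. Filled points mark the 5 genes with an adjusted p under 0.05, all to the right of 0, and the desmosome genes lie on both sides of 0.

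Ladinin 1, first described as an anchoring filament protein of the epithelial basement membrane, had the largest change. Lad1 read 8.41, 8.47 and 8.47 on the knockdown arrays and 7.87, 7.84 and 7.73 on the control arrays. The groups were well apart, with means of 8.45 ± 0.031 and 7.81 ± 0.073 (SD, n = 3 each). The log2 fold change was 0.64 ± 0.054 SE, or 1.56-fold, with an adjusted p of 0.00188 in limma, and it ranked 43 among the 675 genes called higher.

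F11r encodes junctional adhesion molecule A, an immunoglobulin-like receptor that sits at tight junctions and recruits polarity proteins. It read 9.64, 9.59 and 9.72 on the knockdown arrays and 9.12, 9.15 and 9.14 on the control arrays, and the groups did not overlap. F11r rose 1.43-fold, a log2 fold change of 0.51 ± 0.051 SE (adjusted p = 0.00323 in limma).

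Rab25, a small GTPase of the Rab11 family that recycles membrane cargo in epithelial cells, read 7.85, 7.84 and 7.96 after knockdown and 7.41, 7.51 and 7.37 in controls. All knockdown values were above all control values. Its log2 fold change was 0.46 ± 0.059 SE, or 1.37-fold (adjusted p = 0.00783 in limma).

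Claudin 7 and the scaffold zonula occludens 3 were the remaining calls, both close to the threshold. Cldn7 read 8.26, 8.07 and 8.20 on the knockdown arrays and 7.62, 7.82 and 7.91 on the control arrays, with control array 1 low. The groups did not overlap, and the log2 fold change was 0.40 ± 0.086 SE (1.32-fold, adjusted p = 0.0423 in limma). Tjp3 read 7.87 on each of the 3 knockdown arrays and 7.57, 7.70 and 7.64 on the control arrays, a log2 fold change of 0.23 ± 0.051 SE (1.17-fold, adjusted p = 0.0426 in limma). The knockdown values of Tjp3 were nearly identical and lay above all controls.

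Lad1, F11r and Rab25 were called in each of the 6 fits that left out 1 array, with adjusted p-values of at most 0.015, 0.0271 and 0.049. Cldn7 and Tjp3 were called in none of those 6 fits, where limma gave adjusted p-values of 0.0612 to 0.124 and of 0.0577 to 0.174.

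**Figure D2:**
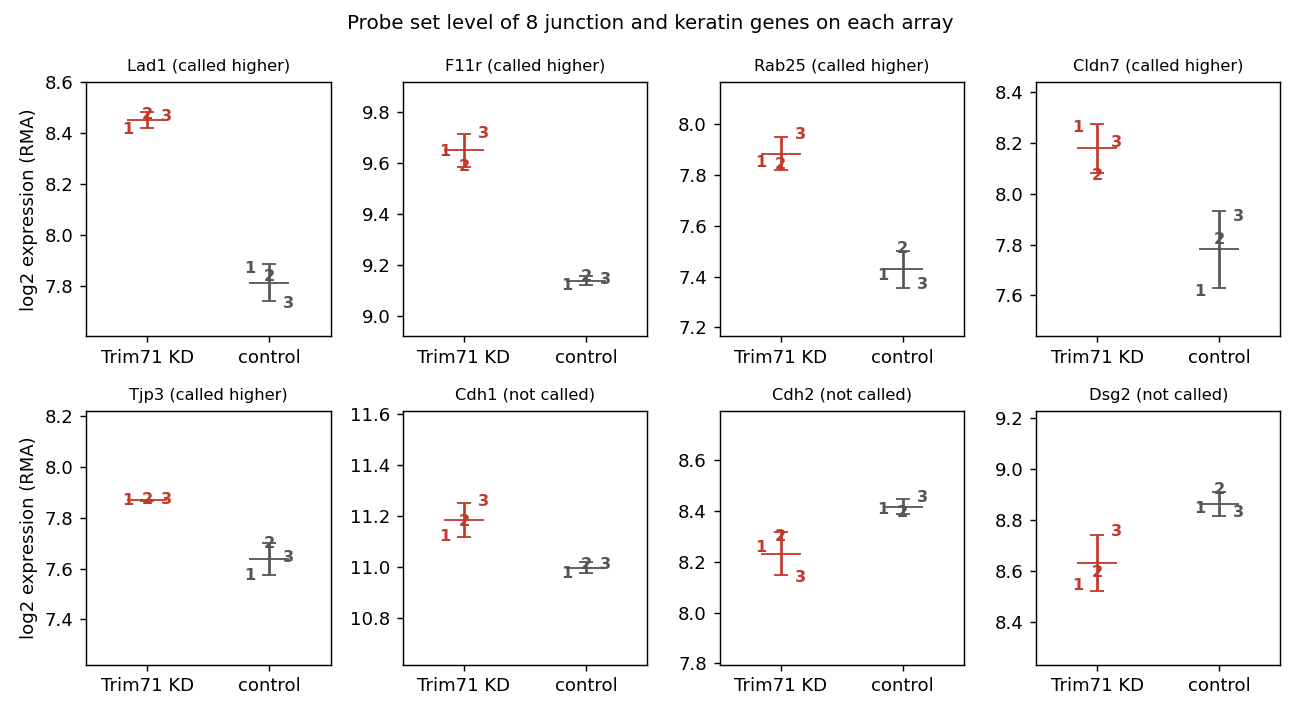
Log2 expression of 8 genes on each array (y axis, each panel spans 1 log2 unit), with knockdown arrays on the left in red and control arrays on the right in grey. Digits are array numbers, the long bar is the mean and the error bar the SD (n = 3). Knockdown values lie above the controls for Lad1, F11r, Rab25, Cldn7, Tjp3 and Cdh1 and below them for Cdh2 and Dsg2, and the last 3 genes did not pass the test.

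**Figure D3:**
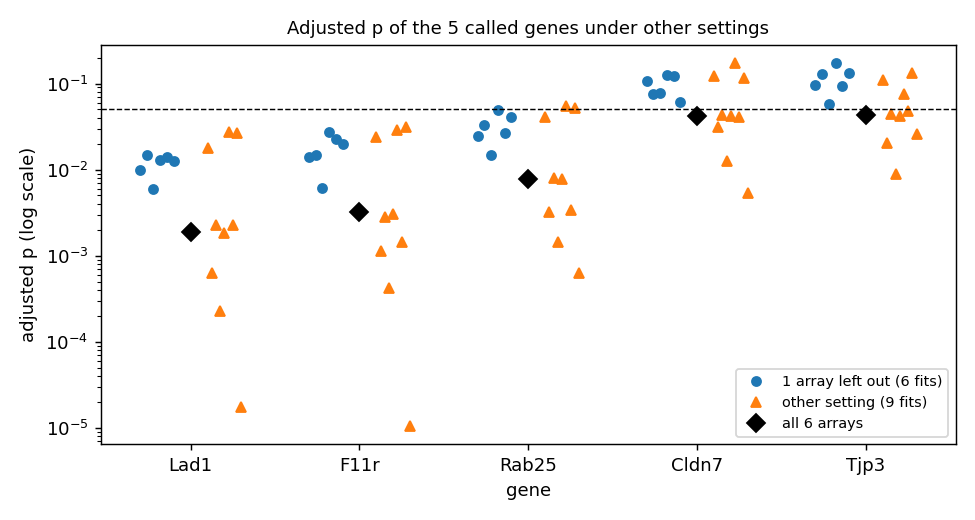
Adjusted p (y axis, log scale) of the 5 called genes with all 6 arrays (diamond), with 1 array left out (6 circles) and under 9 other analysis settings (triangles). The dashed line is the threshold of 0.05. Lad1 and F11r stay below it throughout, Rab25 reaches 0.0547 at most, and all circles of Cldn7 and Tjp3 lie above it.

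The sequences at the start of these 5 genes are shown because these are the called genes of the set. Epithelial promoters are known to carry E-boxes, the sites bound by the SNAI and ZEB repressors. The windows run from 250 bases before to 50 bases after the annotated start and come from RefSeq on GRCm38.p6, where 26 of the 39 genes matched by symbol. Cdh1, Cdh2, Cdh3, Cldn9, Cldn23, Marveld3, Dsg2, Dsc2, Pkp2, Pkp3, Krt19, Llgl2 and Mal2 had no window and were not searched. Capitals mark CACCTG on either strand, which reads CAGGTG when it lies on the opposite strand. Cldn7 and Tjp3 each have 2 annotated starts, and the downstream one is printed.
Lad1 (chr1:135818348-135818647, plus strand): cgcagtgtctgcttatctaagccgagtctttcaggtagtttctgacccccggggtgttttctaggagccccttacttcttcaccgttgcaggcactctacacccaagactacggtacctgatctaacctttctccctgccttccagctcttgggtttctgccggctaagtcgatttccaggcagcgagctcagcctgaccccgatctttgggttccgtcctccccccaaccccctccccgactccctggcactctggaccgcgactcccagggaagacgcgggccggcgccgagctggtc
F11r (chr1:171437311-171437610, plus strand): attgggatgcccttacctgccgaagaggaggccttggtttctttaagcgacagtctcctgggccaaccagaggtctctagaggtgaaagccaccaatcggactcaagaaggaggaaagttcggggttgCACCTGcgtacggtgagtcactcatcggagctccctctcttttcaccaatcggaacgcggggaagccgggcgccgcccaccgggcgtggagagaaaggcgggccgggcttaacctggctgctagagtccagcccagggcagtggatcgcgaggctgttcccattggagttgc
Rab25 (chr3:88548230-88548529, minus strand): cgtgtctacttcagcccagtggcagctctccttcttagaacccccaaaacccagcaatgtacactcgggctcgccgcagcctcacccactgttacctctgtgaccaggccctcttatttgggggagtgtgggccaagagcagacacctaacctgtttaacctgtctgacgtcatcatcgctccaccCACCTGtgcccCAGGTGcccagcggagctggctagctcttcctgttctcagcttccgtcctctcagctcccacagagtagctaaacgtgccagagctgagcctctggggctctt
Cldn7 (chr11:69965171-69965470, plus strand): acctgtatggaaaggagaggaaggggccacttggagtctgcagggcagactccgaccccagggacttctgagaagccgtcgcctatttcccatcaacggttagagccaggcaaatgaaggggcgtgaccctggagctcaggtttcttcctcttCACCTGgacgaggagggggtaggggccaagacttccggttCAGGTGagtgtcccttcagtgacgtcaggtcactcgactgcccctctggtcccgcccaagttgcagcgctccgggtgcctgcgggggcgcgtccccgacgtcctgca
Tjp3 (chr10:81291218-81291517, minus strand): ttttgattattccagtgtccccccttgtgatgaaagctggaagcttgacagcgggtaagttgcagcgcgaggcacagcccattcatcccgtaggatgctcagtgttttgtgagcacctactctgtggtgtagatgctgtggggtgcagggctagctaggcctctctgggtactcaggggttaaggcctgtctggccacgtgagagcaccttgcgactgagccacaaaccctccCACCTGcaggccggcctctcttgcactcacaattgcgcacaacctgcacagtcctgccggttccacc

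Rab25 and Cldn7 each held 2 copies of CACCTG in the printed window, F11r and Tjp3 held 1 and Lad1 held 0. The other Cldn7 window held 0 and the other Tjp3 window 1. The hexamer was present in at least 1 window of 19 of the 26 genes (73.1%), against 22.2% of the 15613 genes on the array with a window, and in 23 of 35 windows of these genes (65.7%), against 20.2% of all 32851 windows. Ap1m2, Crb3 and Lsr had a window with 4 copies, and Cgn, Cldn5, Cldn12, Ctnnd1, Jup, Lad1 and Tjp1 had none. It did not separate called from other genes, being present in 4 of 5 called and 15 of 21 others. A Grainyhead-like site, searched as AACCGGTT (the same on both strands), was in 0 of the 26 genes and in 0.199% of array genes. A TATA box, searched as TATAAA on both strands, was in 3 of the 26, Ctnnd1, Krt8 and Marveld2 (11.5%, against 13.6% of array genes). CACCTG cannot share letters with the other motifs, while TATAAA and AACCGGTT can share their end letters. A match describes letters in a window and does not show binding.

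Among the 16 tight junction genes 3 rose (18.8%, against 3.39% of all genes) and 0 fell (against 2.15%). Their median log2 fold change was 0.10 and 12 were above 0 (75%, against 51.8% of all genes). The other scaffold and membrane genes had smaller values. Tjp1, which encodes zonula occludens 1, read 9.95, 9.98 and 10.01 on the knockdown arrays and 9.79, 9.83 and 9.87 on the control arrays, with no overlap and a log2 fold change of 0.15 ± 0.048 SE (adjusted p = 0.145 in limma). Ocln, the membrane protein occludin, was at 0.16 ± 0.077 SE (adjusted p = 0.32), and Lsr, a receptor at the corners where 3 cells meet, was at 0.07 ± 0.045 SE (adjusted p = 0.482). For both genes the groups did not overlap, by a small margin. Cgn, the scaffold cingulin, was at 0.08, Marveld3 at 0.06 and Marveld2, which encodes tricellulin, at −0.06, each with overlapping groups.

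Of the 8 claudins, the strands of the seal itself, only Cldn7 was called (12.5%, against 3.39% of all genes called higher). Cldn4, Cldn6 and Cldn3 had log2 fold changes of 0.11, 0.13 and 0.01 and overlapping groups. For Cldn3 the 95% interval ran from −0.12 to 0.14. Cldn12 was at −0.04 and Cldn9 at 0.17 ± 0.13 SE, the least precise value of the set. Cldn5, best known from endothelium, read 5.60 to 5.90 on the knockdown arrays and 5.95 to 6.05 on the control arrays, at −0.20 ± 0.085 SE (adjusted p = 0.248 in limma). It did not overlap between groups, and knockdown array 3 was lowest. Cldn23 was at −0.06 with a mean level of 5.12, at percentile 26.5 of all genes. Claudins, like keratins, are families of related sequence, and cross-hybridisation between members was not tested.

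None of the 5 adhesion genes was called. The groups did not overlap for 3 that were higher and 1 that was lower, where all 5 are brighter than the median gene and 22.1% and 16.2% of genes that bright were higher and lower without overlap (14.7% and 10.8% of all genes). Cdh1, which encodes E-cadherin, the main cadherin of these cells, read 11.12, 11.18 and 11.26 on the knockdown arrays and 10.97, 11.01 and 11.01 on the control arrays. Its log2 fold change of 0.19 ± 0.052 SE had an adjusted p of 0.093 in limma, the lowest among genes of the set that were not called. Cdh2, which encodes N-cadherin of neural and mesenchymal cells, read 8.26, 8.30 and 8.14 on the knockdown arrays and 8.41, 8.39 and 8.45 on the control arrays, the opposite direction, at −0.18 ± 0.057 SE (adjusted p = 0.123). Cdh3, P-cadherin, was at 0.14 ± 0.046 SE and Epcam, an epithelial adhesion molecule of stem cells, at 0.14 ± 0.053 SE, with adjusted p-values of 0.138 and 0.206 and knockdown values above all controls. Ctnnd1, the p120 catenin that stabilises cadherins at the membrane, was at 0.02 with an interval from −0.09 to 0.12.

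Because E- and N-cadherin are exchanged during epithelial-mesenchymal transition, the difference between both probe sets was taken within each array. Cdh1 minus Cdh2 was 2.86, 2.88 and 3.12 on the knockdown arrays and 2.57, 2.62 and 2.56 on the control arrays. The groups did not overlap, and the mean difference was 0.37 higher after knockdown, at 2.95 ± 0.14 against 2.58 ± 0.031 (SD, n = 3 each). An exact permutation test (two-sided) gave p = 0.1, which with 3 arrays in each group is the lowest value possible. Cdh1 alone was higher and Cdh2 alone lower without overlap, so the separation of their difference was fixed beforehand. The test therefore adds nothing to the values of each gene. Probe sets bind with different strength, so the level of this difference has no meaning and its change between groups alone can be read. Without knockdown array 3, the array with the highest value, it was 0.29.

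Desmosome genes went both ways, with 0 called of 7, a median of −0.02 and 3 genes above 0 (42.9%, against 51.8% of all genes). Jup, which encodes plakoglobin, a catenin shared by desmosomes and adherens junctions, read 10.94, 10.95 and 10.97 on the knockdown arrays and 10.74, 10.84 and 10.82 on the control arrays, at 0.15 ± 0.048 SE (adjusted p = 0.136 in limma). The desmosomal cadherins lay on the other side. Dsg2, desmoglein 2, read 8.54, 8.59 and 8.75 on the knockdown arrays and 8.84, 8.92 and 8.83 on the control arrays, with no overlap and a log2 fold change of −0.23 ± 0.066 SE (adjusted p = 0.0959). Without knockdown array 3, its highest knockdown value, Dsg2 was at −0.30 with an adjusted p of 0.0244 in limma, and it was the single gene of the set called lower in a fit that left out 1 array. In that fit 3.51% of all genes were called lower, against 2.15% with all 6 arrays. Dsc2, desmocollin 2, was at −0.15 ± 0.06 SE (adjusted p = 0.246), also without overlap, and was dim, at percentile 33.7 of all genes. Dsp, the desmoplakin that binds keratin filaments, was at −0.02 (interval −0.16 to 0.11), and the plakophilins Pkp2, Pkp3 and Pkp4 were at 0.02, 0.08 and −0.08, of which Pkp4 did not overlap between groups.

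All 4 keratins were above 0, as were 51.8% of all genes. None was called, where 3.39% of all genes were called higher and 2.15% lower. Krt8, the type II keratin of simple epithelia, read 11.17, 11.26 and 11.36 on the knockdown arrays and 10.92, 11.10 and 11.15 on the control arrays. The gap between the lowest knockdown and the highest control value was small, and the log2 fold change was 0.21 ± 0.077 SE (adjusted p = 0.191 in limma). Its filament partner Krt18, the type I keratin, read 10.50, 10.56 and 10.63 on the knockdown arrays and 10.40, 10.55 and 10.55 on the control arrays, and the groups overlapped (0.06 ± 0.062 SE). Krt7 was at 0.22 ± 0.089 SE (adjusted p = 0.227) and Krt19 at 0.15 ± 0.078 SE (adjusted p = 0.362), both with overlap. On every keratin probe set knockdown array 3 was the highest knockdown array and control array 1 the lowest control array. Krt8 minus Krt18 within an array was 0.67, 0.70 and 0.73 on the knockdown arrays and 0.52, 0.54 and 0.60 on the control arrays, a difference of 0.14 (exact two-sided permutation p = 0.1, the smallest possible).

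In the polarity and trafficking group Rab25 alone was called, 1 of 6 where 3.39% of all genes were called higher, and 4 of 6 genes were higher without overlap, as were 14.7% of all genes. Ap1m2, the medium subunit of the epithelial clathrin adaptor that sorts cargo to the basolateral membrane, read 8.17, 8.28 and 8.42 on the knockdown arrays and 7.99, 8.12 and 8.12 on the control arrays, at 0.21 ± 0.075 SE (adjusted p = 0.17 in limma). Crb3, an apical determinant of the Crumbs family, was at 0.15 ± 0.06 SE and its partner Pard6b, a scaffold of the Par complex, at 0.11 ± 0.049 SE, with adjusted p-values of 0.22 and 0.282. Llgl2, which acts at the basolateral side, was at −0.02 (interval −0.14 to 0.11), and Mal2, a membrane protein of transcytosis, was at −0.06 ± 0.12 SE. Neither differed beyond the spread between arrays.

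**Figure D4:**
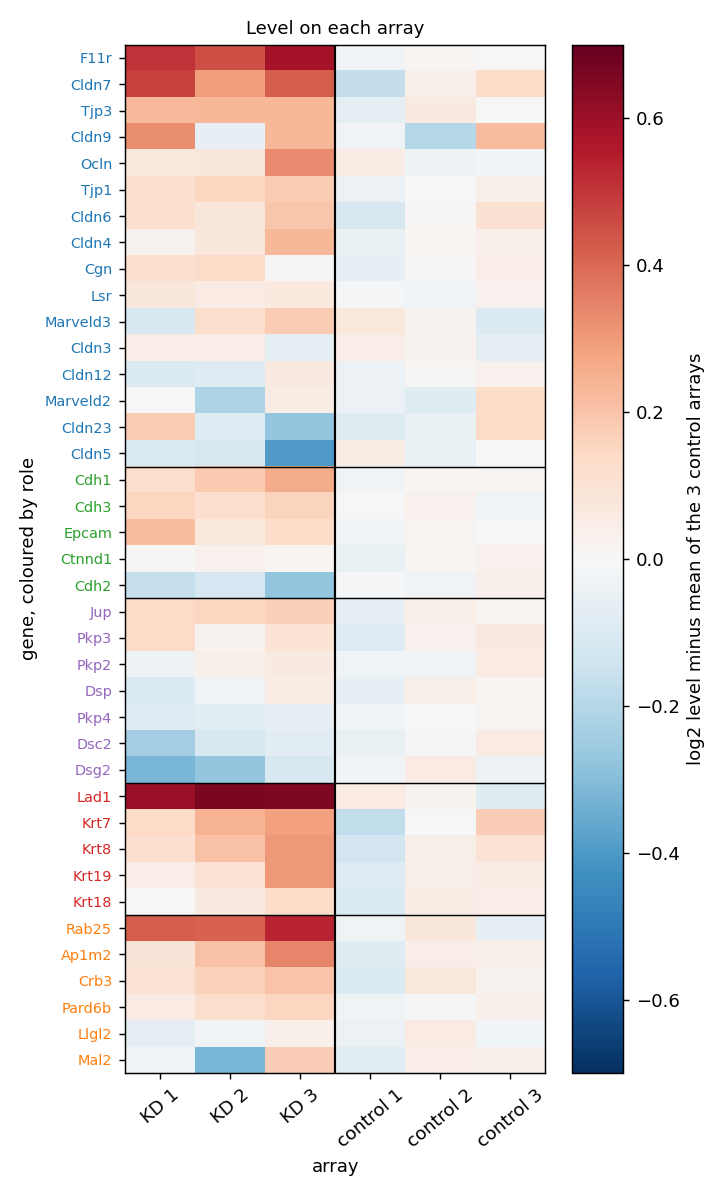
Level of each of the 39 genes on each array as a log2 difference from the mean of the 3 control arrays (colour scale from −0.7 to 0.7), with knockdown arrays left of the vertical line and roles separated by horizontal lines. Lad1, F11r, Rab25 and Cldn7 are red on all 3 knockdown arrays, Dsg2, Dsc2 and Cdh2 are blue on all 3, and control array 1 is pale blue for all 4 keratins.

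For the 34 genes not called, the 95% intervals of the log2 fold change reached at most 0.47 (Cldn9) and at least −0.40 (Cldn5), which is 1.38-fold and 0.756-fold. Of these intervals, 13 excluded 0 before adjustment, 9 above 0 (26.5%) and 4 below 0 (11.8%). Of all genes, 11% were higher and 8.08% lower at an unadjusted p under 0.05 in limma. The median over the 39 genes was 0.08 above the control mean on knockdown arrays 1 and 2 and 0.16 above it on knockdown array 3, and the controls lay at −0.04, 0.02 and 0.03. After a repeated quantile normalization the median fold change of the 39 was 0.09, and without knockdown array 3 it was 0.08, against 0.00 and 0.01 for all genes. Desmosome genes had the lowest median of the 5 roles under both, at −0.04 and −0.06. The 4 keratins without Lad1 had medians of 0.17 and 0.12, and the 5 adhesion genes 0.12 and 0.13.

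Several of the 39 are neighbours on the chromosome, with no protein-coding gene between them in RefSeq. Cdh3 and Cdh1 on chromosome 8 had log2 fold changes of 0.14 and 0.19, and Cldn6 and Cldn9 on chromosome 17 had 0.13 and 0.17. Krt8 and Krt18 on chromosome 15 had 0.21 and 0.06, Cldn4 and Cldn3 on chromosome 5 had 0.11 and 0.01, and Ocln and Marveld2 on chromosome 13 had 0.16 and −0.06. Cdh2 and Dsc2 on chromosome 18, with 1 coding gene between them, had −0.18 and −0.15. None of these neighbouring genes was called.

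Other genes of the same structures, 49 measured, had 3 called higher (6.12%, against 3.39% of all genes) and 0 lower (against 2.15%), and a median of 0.02. Of the 49, 25 were brighter than the median gene, and 5.69% of all genes that bright were called higher. Krt17, a keratin of stratified and stressed epithelia, rose by 0.46 ± 0.053 SE (adjusted p = 0.00573 in limma) and was called with any array left out. Ppl, the desmosomal plaque protein periplakin, rose by 0.37 ± 0.055 SE (adjusted p = 0.0117), and Afdn, the scaffold afadin that links nectins to actin, by 0.24 ± 0.044 SE (adjusted p = 0.0242). Afdn was called in 1 and Ppl in 3 of the 6 fits with an array left out. By role, 0 of 12 tight junction genes, 1 of 9 adherens genes, 1 of 6 desmosome genes, 1 of 10 keratins and 0 of 12 polarity genes were called. Jam2, a relative of F11r, was at 0.19 (adjusted p = 0.0604), Cldn8 at 0.20 and Ildr1, a relative of Lsr, at −0.24 (adjusted p = 0.0734). Of the catenins and neighbouring junction genes, Ctnna1 was at −0.14 and Nectin4 at 0.17, and the polarity genes Llgl1 at −0.14 and Prkcz at 0.12. Dsg3 at 0.21 and Krt80 at 0.11 were not called. Dsg1a and Dsc1 were not analysed here.

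Genes tied to the mesenchymal state did not move one way. Vim, the intermediate filament of mesenchymal cells, fell by 0.24 ± 0.044 SE (adjusted p = 0.0249 in limma), while Snai1, a repressor of Cdh1, rose by 0.23 ± 0.054 SE (adjusted p = 0.049). Vim was called in 1 and Snai1 in 0 of the 6 fits with an array left out. The repressor Zeb1 was at −0.32 ± 0.091 SE (adjusted p = 0.0932) and Zeb2 at −0.19 ± 0.052 SE (adjusted p = 0.0911). Snai2, Twist1, Fn1 and Cdh11 were at −0.11, −0.02, −0.02 and 0.08. So 1 of 8 rose and 1 fell, where 3.39% and 2.15% of all genes did, with a median of −0.07.

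Markers of other cells that a culture could hold stand beside these values. For comparison, 3.39% of all genes were called higher and 2.15% lower, and 11% and 8.08% were higher and lower at an unadjusted p under 0.05. Of 8 trophectoderm markers, 2 rose and 0 fell: Tfap2c, an AP-2 factor, at 0.53 and Gata2 at 0.38, both called with any array left out. Their list mean was 6.95 to 7.02 on knockdown arrays and 6.91 to 6.95 on control arrays, and Cdx2, Elf5 and Eomes, which define that lineage, were at 0.07, −0.12 and −0.30 and were not called. Of 8 primitive endoderm markers, 0 were called in limma and 0 had an unadjusted p under 0.05, and their list mean was 6.01 to 6.08 on knockdown arrays and 6.05 to 6.17 on control arrays. Gata6 at −0.23 and Foxa2 at 0.19 had the largest statistics there. Of 9 fibroblast markers, 0 rose and 2 fell, Acta2 at −0.70 and Tagln at −0.34, with list means of 6.07 to 6.21 on knockdown arrays and 6.21 to 6.34 on control arrays. Col1a1, Col3a1 and Dcn were at −0.02, −0.09 and −0.03. Of 6 stem cell markers, 1 rose and 0 fell: Zfp42 at 0.25, called in 1 of the 6 fits with an array left out. Nanog was at 0.15 (adjusted p = 0.15 in limma). All 6 were above 0, as were 51.8% of all genes, with a median of 0.098. Their list mean was 11.51 to 11.56 on knockdown arrays and 11.41 to 11.43 on control arrays. The part of all these markers in the results for junction and keratin genes was not tested. In bulk RNA a change in the share of cells of a type and a change in RNA per cell cannot be told apart.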

How the data were processed

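RNA of 6 samples, 3 Trim71 knockdown and 3 control, was measured on 1-colour Affymetrix arrays from 100 ng of total RNA amplified with a whole-transcript kit, per the labels' protocols. The values used are the authors' deposited log2 expression table of 34760 probe sets. Per the submitters' processing notes, the tools were RMA and affy, with no version stated. RMA quantile-normalizes arrays, so a change shared by most genes cannot be seen. The table has no detection calls, and the number of arrays limits the precision.

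GEO's platform annotation named the probe sets: 21640 had 1 symbol, 1321 had several and 11799 were unnamed here. For genes with several, the probe set with the highest mean was used, which left 19937 genes, with no intensity filter. Limma 3.58.1 in R 4.3.3 was fitted with group as the only term (lmFit, eBayes), with Benjamini-Hochberg adjustment over all 19937 genes. On simulated data with groups of 3 arrays and 19937 genes, 81% of 1.5-fold and 98% of 2-fold changes were recovered, and 2.72% of its calls were unchanged genes. Noise was drawn independently for each gene, without shifts shared by a whole array, and changes under 1.5-fold were not simulated. These rates therefore do not cover F11r, Rab25, Cldn7 and Tjp3, which rose by less than that. Within-array differences were tested by exact permutation with scipy 1.17.1. Tables and figures used Python 3.11.15, pandas 2.3.3 and matplotlib 3.10.9.

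The 39 genes and the other lists were chosen with earlier results of these data known. Every one of the 39 is named, and in other lists every called gene and up to 2 genes with the largest statistics, plus Cldn8, Nectin4, Zeb1, Zeb2 and other markers and mesenchymal genes chosen after their values were seen. The other settings tried were leaving out each array, a block for the replicate number, only genes at or above the median level, a trended and robust prior, array weights, the mean of probe sets, repeated quantile normalization, median centring, no moderation, all probe sets and a threshold of 0.01. No genome build is stated for the arrays, so the coordinates printed are those of RefSeq's promoter windows.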

Additional observations from a re-analysis of the deposited data

How the results depend on the processing

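The 5 higher and 0 lower calls among the 39 genes became 3 and 0 at an adjusted p under 0.01. The share of all genes at that threshold is not given here. Over all probe sets the calls were 3 and 0, where 0.993% and 0.567% of all genes were called. Without variance moderation the calls were 2 and 0, where 1.36% and 0.712% of all genes were called. They became 9 and 1 with a trended and robust prior, where 6.08% and 4.28% of all genes were called. With array weights they were 6 and 1 (5.59% and 5.31% of all genes), and likewise after repeated quantile normalization (4.33% and 3.77%). The fit of genes at or above the median level holds only 31 of the 39. It called 9 of them higher and 2 lower, where 11.3% and 7.68% of all its genes were called. Median centring (3.57% and 2.60% of all genes) and the mean of probe sets (3.36% and 2.13%) left 5 and 0. With 1 array left out there were 3 to 3 higher and 0 to 1 lower genes, with Dsg2 lower without knockdown array 3. The numbers of all genes called moved with them, from 675 higher and 428 lower to 1124 and 766 among the bright genes, 1213 and 854 with the trended prior, 1114 and 1058 with array weights, 271 and 142 without moderation, 198 and 113 over all probe sets, and 863 and 751 after repeated quantile normalization. With 1 array left out, 148 to 603 of all genes were higher (0.742% to 3.02%) and 101 to 699 lower (0.507% to 3.51%). Without knockdown array 3 they were 603 higher and 699 lower. Cdh1 was called higher among the bright genes, with the trended prior, with array weights and after repeated quantile normalization, and Dsg2 was called lower in the same settings. Tjp1, Cdh3, Jup and Krt8 (higher) and Cdh2 (lower) were called in 1 or 2 of them. Lad1 and F11r kept their calls in every setting, while Rab25 missed the threshold without moderation and with the replicate block. The cause of these shifts was not tested. The replicate numbers gave no sign of pairing: the deviations of same-numbered arrays correlated at −0.017, −0.15 and −0.24. With the replicate number as a block 2 genes were called higher, Lad1 and F11r, and 0 lower, and the change of Trim71 stayed at −1.52. In that fit 171 genes of all were higher (0.858%) and 108 lower (0.542%). The within-array differences kept their direction with each array left out, at 0.29 to 0.42 for Cdh1 minus Cdh2 and 0.13 to 0.17 for Krt8 minus Krt18. For Cdh1 minus Cdh2 the direction was fixed beforehand, because Cdh1 was higher and Cdh2 lower without overlap. Values near 0 changed sign with 1 array left out for 7 genes that were not called: Cldn23 (−0.19 to 0.043), Cldn3 (−0.025 to 0.046), Ctnnd1 (−0.0064 to 0.032), Dsp (−0.061 to 0.016), Llgl2 (−0.042 to 0.014), Mal2 (−0.17 to 0.073) and Marveld2 (−0.11 to 0.024). Without detection calls, what dim signal limits in genes such as Cldn23, Dsc2 and Cldn5 was not measured.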
